A study of Ovis aries with 24 samples.

Results

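Immediate early genes are the genes a cell transcribes first after a stimulus, and 39 of them, including the activity-dependent genes of neurons, were followed here in 2 organs of preterm lambs, the liver and the brain. The brain samples were periventricular white matter (PVWM), which lines the lateral ventricles. The genes were taken by symbol from the gene tables of both tissues. All 39 were found, of 27716 entries in each table. Messenger RNA was measured by poly-A RNA sequencing in 24 libraries, 12 per tissue, from 13 animals, of which 11 gave both tissues. The design compared what ventilation with surfactant changed in organs outside the lung, and what budesonide added. Each tissue had 3 groups of 4 animals. The unventilated lambs received no treatment and were 127 or 128 days of gestation, 2 labelled male and 1 female in each tissue and 1 with no sex given. The surfactant lambs were ventilated and given poractant alfa, a porcine lung surfactant, into the trachea at 2.5 mL/kg. The budesonide lambs were ventilated and given the same surfactant dose with 0.25 mg/kg of budesonide, a synthetic glucocorticoid. Both ventilated groups held 3 females of 126 days and 1 male of 127 days, so gestational age and ventilation were nearly confounded. Ventilation was always combined with surfactant, and their effects cannot be told apart.

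Immediate early genes need no new protein for their induction. Kinase cascades and calcium signals act on factors already present in the cell, such as serum response factor (SRF) with its partners and the cAMP response element binding protein. The first wave consists largely of transcription factors (the FOS and JUN families, EGR, NR4A and KLF) and of proteins that shut the response down, such as the dual-specificity phosphatases (DUSP), which inactivate MAP kinases, and ZFP36, which promotes decay of short-lived messages. In liver such genes respond to injury, hormones, fasting and cytokines, while in brain NPAS4, ARC and EGR family members also report synaptic activity.

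Library totals were 16.1 to 23.2 M counts in liver and 14.9 to 17.5 M in PVWM. Values below are CPM, the counts of a gene relative to the scaled total of its library, computed within a tissue, and the values of a group stand in the order of animal numbers: 057, 058, 059 and 060 for unventilated liver, 057, 058, 060 and 061 for unventilated PVWM, 007, 032, 049 and 051 for surfactant, and 031, 048, 050 and 054 for budesonide. The tissue labels matched their markers: 8 hepatocyte markers summed to 181278 CPM or more in every liver library and to 263 CPM or less in every PVWM library. For 11 neuron markers the sums were 27.0 CPM or less in liver, where SLC17A6 and GAD2 were at 0, and 6259 to 7959 CPM in PVWM. A change in such bulk tissue can come from fewer cells of a type or from less RNA per cell, which cannot be told apart. A gene was called at a Benjamini-Hochberg adjusted p under 0.05 in the edgeR quasi-likelihood test over all genes, and log2 changes are given ± SE.

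In liver the early genes were higher after ventilation with surfactant. Of the 36 members tested, 32 rose and 0 fell against unventilated lambs, where 21.6% of all 16824 genes were called higher and 19.5% lower (41.1% in either direction). The 4 not called were FOSB (1.98 ± 1.23), KLF2 (0.36 ± 0.35), DUSP2 (0.44 ± 0.51) and DUSP6 (0.92 ± 0.36). The median change of the tested members was 2.85 log2, against -0.02 over all genes tested, and the fitted change was positive for all 36. Non-overlapping CPM ranges, with every surfactant liver above every unventilated one, were found for 23, and for 18.7% of all genes. EGR4, NPAS4 and ARC had too few liver counts to be tested. Another 5, FOSB, FOSL1, MAFF, EGR3 and NR4A3, were below the filter level of 0.558 CPM in some unventilated livers and passed through other libraries. With any 1 group set aside, 34 members still reached that level in 4 libraries, all but FOSB and FOSL1 of those tested, and 31 of the 34 rose.

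The size of the liver response differed widely between the surfactant lambs. Animals 049 and 051 were the 2 highest for 35 of the 36 members, KLF4 being the exception, and animal 007, the male of 127 days, was lowest for 34. Taken over the 36 members, the median log2 difference from the unventilated mean was 1.00 in animal 007, 1.96 in 032, 3.75 in 049 and 3.29 in 051. The highest surfactant liver exceeded the lowest by a median of 6.07-fold, against 1.74-fold within the unventilated and 1.95-fold within the budesonide group. With both 049 and 051 left out, an alternative added after the values were seen, 21 members and 12.3% of all genes were called higher, and 0 members were lower. With gestational age as a covariate 11 members and 5.24% of all genes were called higher, and 0 members were lower.

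**Figure D1:**
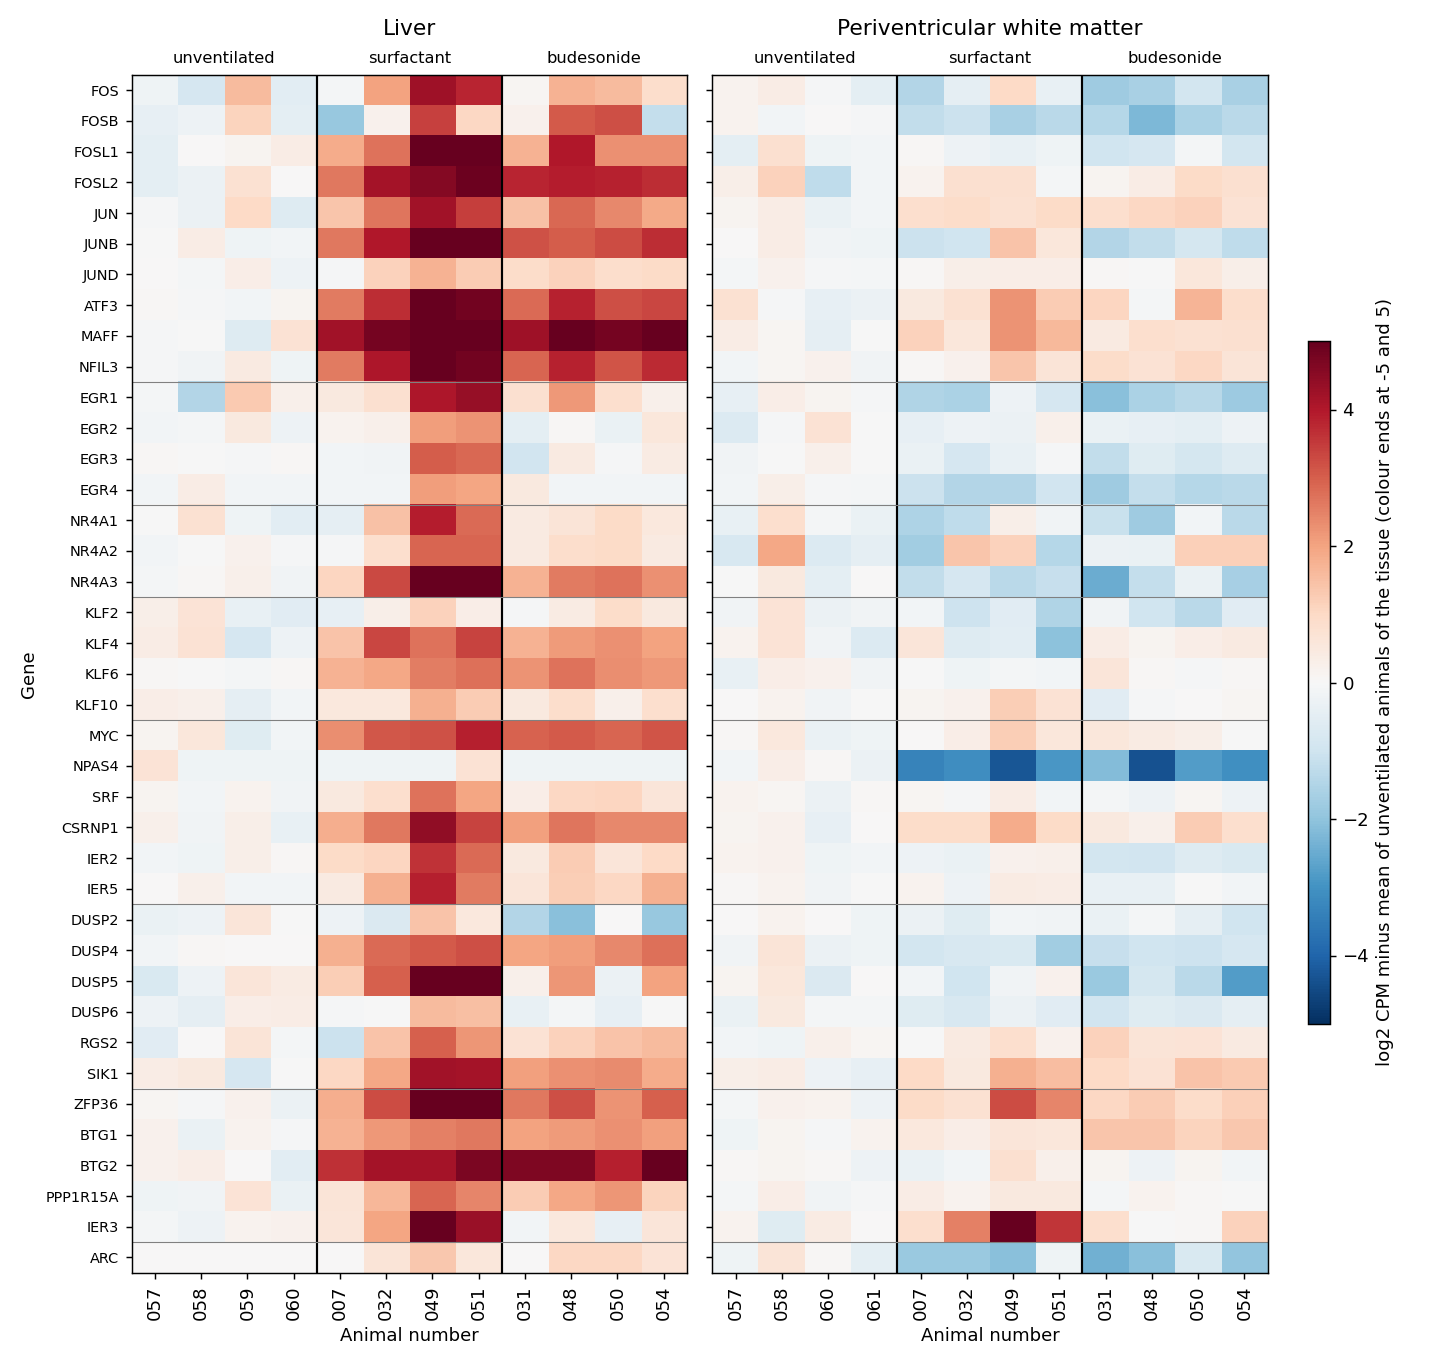
Heat map of log2 CPM of each of the 39 genes (rows, ordered by role) in each animal (columns) of liver, left, and white matter, right, minus the mean of the unventilated animals of that tissue. The surfactant livers 049 and 051 are the reddest columns, with medians of 3.75 and 3.29, while the white matter columns mix both colours.

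In PVWM the same genes moved in both directions. Against unventilated lambs, surfactant lambs had 7 members called higher and 4 lower of 39 tested, where 1.35% of all 18616 genes were called higher and 0.698% lower (2.05% in either direction). The members that rose were JUN, MAFF, CSRNP1, SIK1, ZFP36, BTG1 and IER3, and those that fell were FOSB, EGR4, NPAS4 and DUSP4. The median change was -0.02 log2, against 0.02 over all genes. Per animal the median over the members lay between -0.30 and 0.37 log2 from the unventilated mean in all 12 PVWM libraries. Fewer calls were made without single animals: 6 without surfactant 049 or without 051, 3 without unventilated 057, 7 without 058, and 4 without 060 or without 061. The shares of all genes called in these fits are not given here, so the lower counts are not read as particular to the members. Without both 049 and 051, 0 members were higher and 4 lower, with 0.389% of all genes higher and 0.142% lower. With gestational age as a covariate edgeR called 0 members, and 15 of all genes. FOSB and NPAS4 reached the PVWM filter level of 0.617 CPM in 4 libraries only through the unventilated group, where they were high, so that a pass already required a difference. Of the other 37 members 7 rose and 2 fell.

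The liver and PVWM changes were compared directly in 1 edgeR fit of all 24 libraries. For surfactant against unventilated, the liver change exceeded the PVWM change for 31 of 39 members and was below it for 0, where 14.6% of 20010 genes were called higher and 11.2% lower (25.8% in either direction). The median difference was 2.66 log2, against 0.04 over all genes. The 31 included EGR4 and ARC, which had too few liver counts to be tested there and entered this fit through PVWM. They also included FOSL1, with 4 counts over all unventilated livers. The sizes of these differences are uncertain. Of the 36 members tested in both tissues, 19 had a positive fitted change in both and 17 were positive in liver and negative in PVWM. By calls, 7 were higher in both tissues, 24 were higher in liver and not called in PVWM, and DUSP4 was higher in liver and lower in PVWM. The share of all genes with these joint signs or calls was not computed. Of all genes 21.6% were called higher in liver and 1.35% in PVWM, so most genes higher in liver were not called in PVWM. With animals 049 and 051 left out, 19 tissue differences were called, all higher in liver, as were 7.19% of all genes.

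**Figure D2:**
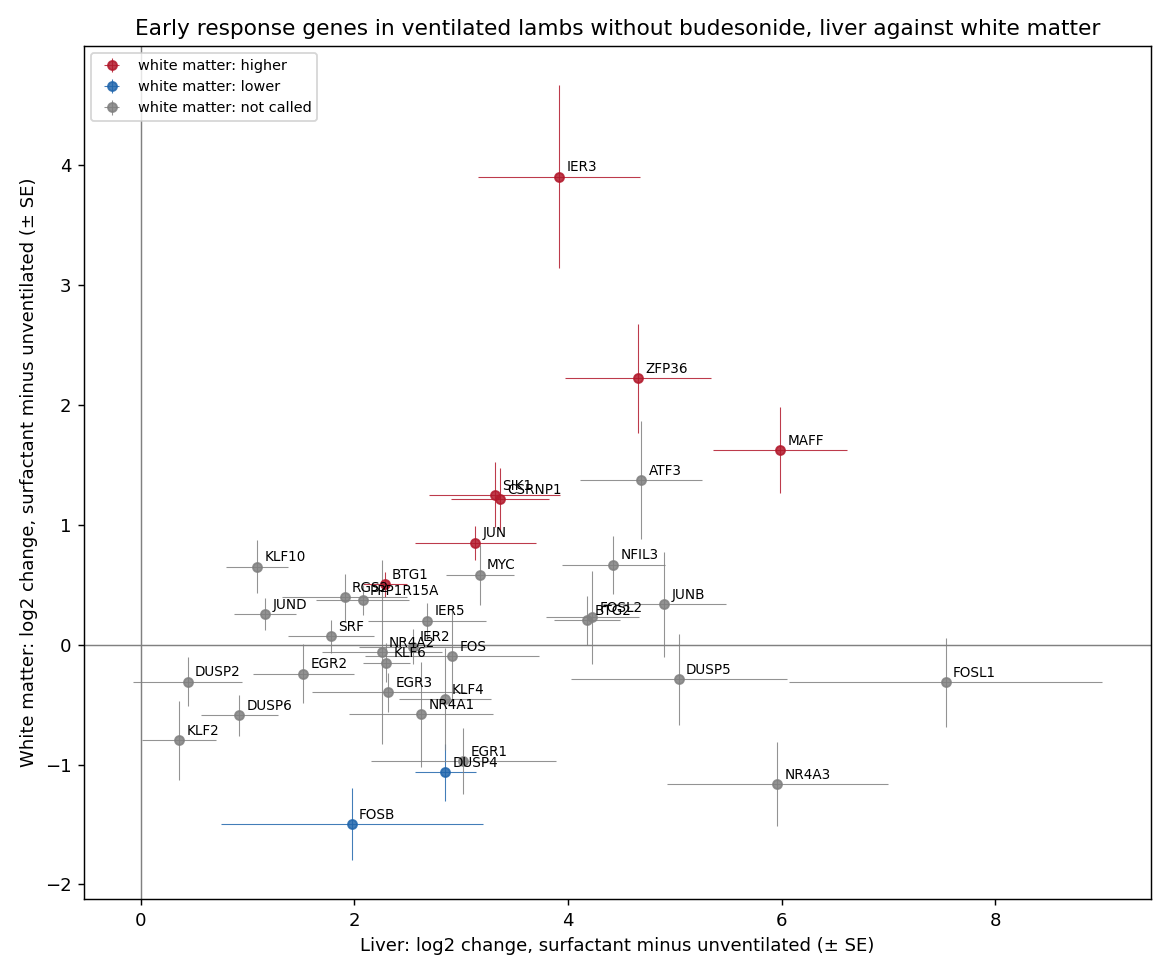
Log2 change from unventilated to surfactant in liver (horizontal) and white matter (vertical) with SE bars, for the 36 genes tested in both tissues, coloured by the call in white matter. All 36 lie right of 0, and 17 lie below 0 on the white matter axis, DUSP4 among those called lower there. IER3 stands alone at the top with 3.92 in liver and 3.90 in white matter.

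AP-1 is the dimer of FOS and JUN proteins, and the group also holds the stress factor ATF3, the small MAF protein MAFF and NFIL3. In liver 9 of these 10 genes rose with surfactant, FOSB being the exception, whereas in PVWM JUN and MAFF rose, FOSB fell and 7 were not called. FOS, named here after its values were seen, measured 6.46, 4.15, 23.1 and 5.27 CPM unventilated, 7.12, 31, 146 and 108 CPM with surfactant and 8.03, 25.8, 22.8 and 14.1 CPM with budesonide in liver. FOS in PVWM measured 33.7, 39.5, 28.9 and 21.4 CPM unventilated, 10.9, 22, 59.5 and 23.3 CPM with surfactant and 8.6, 9.62, 16 and 9.68 CPM with budesonide. The liver of animal 007 stood within the unventilated range and those of 049 and 051 far above it, while in PVWM animal 049 was highest and 007 lowest among surfactant lambs and the budesonide values all lay below the unventilated ones. The change for surfactant against unventilated was 2.92 ± 0.82 in liver (adjusted p = 0.0132) and -0.10 ± 0.40 in PVWM (adjusted p = 0.942), and the edgeR tissue difference was 3.13 ± 0.93 (adjusted p = 0.016).

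FOSL2, a FOS relative with slower kinetics, stood at 4.87, 5.61, 11.8 and 7.05 CPM unventilated, 43.3, 127, 170.4 and 209 CPM with surfactant and 99.3, 106, 99.9 and 91.3 CPM with budesonide in liver. Both ventilated groups were above every unventilated liver (4.23 ± 0.44 with surfactant, adjusted p = 3.24e-05, and 3.76 ± 0.43 with budesonide, adjusted p = 3.48e-05). FOSL2 in PVWM, at 47.3, 86.3, 16 and 35 CPM unventilated, 44.6, 67.6, 67.8 and 36.6 CPM with surfactant and 42.8, 50.3, 75.4 and 67.5 CPM with budesonide, overlapped between all groups. JUNB in liver measured 13.2, 17.1, 11.5 and 12.1 CPM unventilated, 83.5, 218, 819 and 492 CPM with surfactant and 123, 110.4, 128 and 173 CPM with budesonide. Every ventilated liver exceeded every unventilated one, by 4.90 ± 0.58 log2 with surfactant (adjusted p = 7.9e-05) and 3.31 ± 0.54 with budesonide (adjusted p = 0.000358). JUNB in PVWM measured 19.5, 24.8, 17.2 and 16.7 CPM unventilated, 9.1, 9.49, 51.7 and 28.5 CPM with surfactant and 6.91, 8.23, 10.4 and 7.99 CPM with budesonide. Among the surfactant lambs 007 and 032 lay below the unventilated range and 049 and 051 above it, and the fitted change was 0.34 ± 0.44 (adjusted p = 0.779).

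JUN, the main AP-1 partner of FOS, rose in both tissues. JUN in liver measured 38.2, 32.5, 80.9 and 25.5 CPM unventilated, 106, 255, 746 and 446 CPM with surfactant and 110.3, 294, 213 and 151 CPM with budesonide. In PVWM JUN was tightly grouped at 97.3, 115, 70.2 and 80.8 CPM unventilated, 161, 168, 152 and 175 CPM with surfactant and 159, 184, 201 and 149 CPM with budesonide. Neither ventilated group overlapped the unventilated one in either tissue. The surfactant change was 3.13 ± 0.57 in liver (adjusted p = 0.00115) and 0.85 ± 0.14 in PVWM (adjusted p = 0.0081), and the budesonide change in PVWM was 0.93 ± 0.14 (adjusted p = 0.00131).

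MAFF, which lacks a transactivation domain and pairs with other bZIP proteins, measured 0.674, 0.685, 0.412 and 1.21 CPM unventilated, 14.6, 22.2, 83.7 and 72.5 CPM with surfactant and 15.3, 33.5, 22.3 and 30.7 CPM with budesonide in liver. MAFF in PVWM was 1.1, 0.899, 0.564 and 0.805 CPM unventilated, 2, 1.29, 4.38 and 2.81 CPM with surfactant and 1.16, 1.56, 1.5 and 1.51 CPM with budesonide. Surfactant values exceeded unventilated values without overlap in both tissues, by 5.98 ± 0.63 log2 in liver (adjusted p = 3.47e-05) and 1.62 ± 0.36 in PVWM (adjusted p = 0.0347). NFIL3, a repressor tied to circadian and cytokine responses, had liver values of 18.6, 17.1, 26.8 and 17 CPM unventilated, 119, 327, 704 and 557 CPM with surfactant and 148, 285, 173 and 264 CPM with budesonide. All 8 ventilated livers were above the unventilated ones (4.43 ± 0.48 with surfactant, adjusted p = 4.67e-05). NFIL3 in PVWM, at 12.6, 14.6, 16.2 and 12 CPM unventilated, 14.2, 16, 35.9 and 21.7 CPM with surfactant and 26.3, 22.9, 28.4 and 21.6 CPM with budesonide, was not called with surfactant (0.67 ± 0.24, adjusted p = 0.212).

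FOSB, whose truncated splice form is known from brain, was rare in both tissues and fell in PVWM. FOSB in PVWM measured 1.47, 1.16, 1.32 and 1.24 CPM unventilated, 0.485, 0.551, 0.337 and 0.437 CPM with surfactant and 0.407, 0.174, 0.346 and 0.44 CPM with budesonide. FOSB passed the filter there only through the unventilated animals. No ventilated animal reached their range, and the change was -1.50 ± 0.30 with surfactant (adjusted p = 0.0224) and -1.90 ± 0.31 with budesonide (adjusted p = 0.00203). FOSB in liver was 0.193, 0.228, 0.764 and 0.179 CPM unventilated, 0, 0.36, 4.16 and 0.72 CPM with surfactant and 0.349, 3.27, 3.61 and 0.0643 CPM with budesonide, overlapping between groups. Of the remaining AP-1 genes, the liver change with surfactant was 7.53 ± 1.46 for FOSL1, 4.69 ± 0.57 for ATF3 and 1.16 ± 0.29 for JUND, and 0 of these 3 were called in PVWM. The FOSL1 value rests on 4 counts over all unventilated livers and depends on the prior count of the fit.

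EGR zinc fingers are direct targets of the ERK pathway, and EGR1, EGR3 and EGR4 follow neuronal activity in brain. In liver EGR1, EGR2 and EGR3 were called higher with surfactant, and in PVWM EGR4 was called lower and the other 3 were not called. EGR1, named after its values were seen, measured 16.1, 6.07, 42.3 and 20.1 CPM unventilated, 23.8, 29.6, 286 and 346 CPM with surfactant and 29.8, 77, 30.7 and 20.6 CPM with budesonide in liver. Animals 049 and 051 were about an order of magnitude above 007 and 032, which lay within the unventilated range (3.02 ± 0.87, adjusted p = 0.0151). Without 049 and 051 the adjusted p of the liver EGR1 change was 0.746. EGR1 in PVWM measured 32.5, 54.6, 48 and 42.3 CPM unventilated, 15.3, 14.4, 36.7 and 24.1 CPM with surfactant and 10.2, 14.5, 16.8 and 12.3 CPM with budesonide. All 4 budesonide animals and 3 of the surfactant animals were below every unventilated PVWM, with a change of -0.97 ± 0.27 with surfactant (adjusted p = 0.0974) and -1.72 ± 0.28 with budesonide (adjusted p = 0.00195).

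EGR4 in PVWM measured 14, 18.6, 14.7 and 14.1 CPM unventilated, 7.16, 5.39, 5.46 and 7.86 CPM with surfactant and 4.41, 6.55, 5.66 and 5.91 CPM with budesonide. The unventilated values stood clear of all 8 ventilated ones (-1.25 ± 0.17 with surfactant, adjusted p = 0.00239, and -1.45 ± 0.17 with budesonide, adjusted p = 0.000179). Both calls held without any single animal, and the surfactant call was lost with gestational age as a covariate (adjusted p = 0.133). EGR4 in liver was near 0, at 0, 0.0456, 0 and 0 CPM unventilated, 0, 0, 0.389 and 0.36 CPM with surfactant and 0.0582, 0, 0 and 0 CPM with budesonide. The highest values, 0.360 and 0.389 CPM, were those of 051 and 049. EGR3, which acts downstream of calcium signals, changed with surfactant by 2.31 ± 0.72 in liver (adjusted p = 0.0214) and -0.40 ± 0.16 in PVWM (adjusted p = 0.278). With budesonide the EGR3 changes were 0.05 ± 0.77 in liver (adjusted p = 0.961) and -0.82 ± 0.17 in PVWM (adjusted p = 0.00793), and their tissue difference was not called (adjusted p = 0.4). Without animals 049 and 051 the liver EGR3 change with surfactant was -0.20 (adjusted p = 0.799). For EGR2, which in other settings drives myelin genes, the change was 1.52 ± 0.47 in liver (adjusted p = 0.0218) and -0.24 ± 0.24 in PVWM (adjusted p = 0.705).

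NR4A1, NR4A2 and NR4A3 are nuclear receptors controlled mainly by their amount. All 3 rose in liver with surfactant, and 0 were called in PVWM. NR4A3 in liver measured 0.482, 0.548, 0.647 and 0.447 CPM unventilated, 1.22, 6.18, 62.3 and 63 CPM with surfactant and 2.04, 3.78, 4.01 and 3.02 CPM with budesonide. The surfactant livers spanned a range of 51.5-fold, with 049 and 051 at the top, and all lay above the unventilated ones (5.96 ± 1.03, adjusted p = 0.000907). NR4A3 in PVWM was 46.1, 64.9, 33 and 46.9 CPM unventilated, 19.8, 26, 18.4 and 20.9 CPM with surfactant and 8.31, 20.3, 37.3 and 14.4 CPM with budesonide. All surfactant values lay below all unventilated values there, but the change of -1.16 ± 0.35 was not called (adjusted p = 0.124). With budesonide it was called in PVWM (-1.25 ± 0.35, adjusted p = 0.0457) although animal 050 lay within the unventilated range. The tissue difference of NR4A3 was the largest of the members with at least 10 liver counts per group (7.21 ± 1.09, adjusted p = 5.9e-05). NR4A1 changed by 2.62 ± 0.67 and NR4A2 by 2.26 ± 0.56 in liver. For both, surfactant animal 007 lay within the unventilated range, and 049 and 051 were highest. Animal 007 had 8.56 CPM of NR4A1 (unventilated 8.22 to 20.4) and 1.11 CPM of NR4A2 (unventilated 1.06 to 1.35).

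KLF zinc fingers regulate growth, metabolism and vessel wall genes. With surfactant 3 of 4 rose in liver, KLF2 being the exception, and 0 of 4 were called in PVWM. KLF6 in liver measured 69, 64.4, 62.1 and 68.9 CPM unventilated, 222, 253, 386 and 442 CPM with surfactant and 317, 433, 329.7 and 301 CPM with budesonide. Ventilated and unventilated livers were fully apart (2.30 ± 0.22 with surfactant, adjusted p = 1.92e-05, and 2.38 ± 0.22 with budesonide, adjusted p = 9.85e-06). KLF6 in PVWM, at 48.9, 77.8, 72.8 and 55.4 CPM unventilated, 61.2, 53.3, 59.1 and 56.2 CPM with surfactant and 95.2, 64.4, 60.8 and 65.3 CPM with budesonide, overlapped between groups. KLF4 changed by 2.85 ± 0.43 and KLF10 by 1.09 ± 0.29 in liver with surfactant.

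MYC, the growth regulator, measured 15.5, 21, 9.23 and 12.9 CPM unventilated, 70.8, 119.9, 128 and 210.3 CPM with surfactant and 107, 119.6, 107 and 125 CPM with budesonide in liver. All 8 ventilated livers exceeded the unventilated ones, and the budesonide values were close together (3.17 ± 0.32 with surfactant, adjusted p = 2.8e-05, and 2.97 ± 0.32 with budesonide, adjusted p = 2.3e-05). MYC in PVWM was 12, 16.6, 9.27 and 9.91 CPM unventilated, 11.9, 14.8, 27.5 and 17.5 CPM with surfactant and 17.1, 15.7, 14.4 and 11.4 CPM with budesonide, with overlap between the groups. CSRNP1, a nuclear protein first described as an AXIN1 target, rose in both tissues with surfactant (3.36 ± 0.46 in liver, adjusted p = 2e-04, and 1.21 ± 0.26 in PVWM, adjusted p = 0.0328). SRF itself changed by 1.78 ± 0.40 in liver (adjusted p = 0.00424) and 0.07 ± 0.14 in PVWM (adjusted p = 0.864). IER5, which is linked to heat shock factor activity, changed by 2.68 ± 0.55 in liver and 0.20 ± 0.15 in PVWM, the former called and the latter not.

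NPAS4 is a bHLH-PAS factor induced in neurons by calcium entry, and it had the most negative fitted change in PVWM among the members. It passed the filter there only through the unventilated animals. NPAS4 in PVWM measured 3.25, 4.56, 3.76 and 2.91 CPM unventilated, 0.243, 0.306, 0.0674 and 0.374 CPM with surfactant and 0.697, 0.0579, 0.404 and 0.314 CPM with budesonide. The unventilated animals were all at 2.91 CPM or more and the ventilated ones all at 0.697 CPM or less. The change was -3.81 ± 0.49 with surfactant (adjusted p = 0.00181) and -3.27 ± 0.46 with budesonide (adjusted p = 0.000801). Both calls held without any single animal, and the surfactant call was lost with gestational age as a covariate (adjusted p = 0.0749). In liver NPAS4 was at 0 in 10 of 12 libraries. The summed neuron markers, 6259 to 7561 CPM in unventilated, 6553 to 7656 in surfactant and 6490 to 7959 in budesonide PVWM, overlapped between the groups. Of the 11 neuron markers tested, 0 were called against unventilated lambs with surfactant or with budesonide. Over all PVWM genes 2.05% and 8.06% were called, so few calls would be found in a list of this size in any case.

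ARC, a synaptic protein whose message travels to dendrites, was named after its values were seen. ARC in PVWM measured 12.9, 23.3, 15.4 and 10.7 CPM unventilated, 4.06, 4.04, 3.37 and 12.8 CPM with surfactant and 2.73, 3.42, 8.78 and 3.71 CPM with budesonide. Surfactant animal 051 lay within the unventilated range and the other ventilated animals below it. The change was called with budesonide (-1.74 ± 0.46, adjusted p = 0.0366) and not with surfactant (-1.36 ± 0.46, adjusted p = 0.177). Without animal 051 the ARC change with surfactant was -2.02 (adjusted p = 0.0271), and the budesonide call was lost without 031, 048, 054, 057, 058 or 060 (adjusted p of 0.0564 to 0.105). In liver ARC had 0 counts in all 4 unventilated libraries and at most 0.167 CPM in the others. The tissue differences called for ARC and EGR4 rest on these near-zero liver counts.

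**Figure D3:**
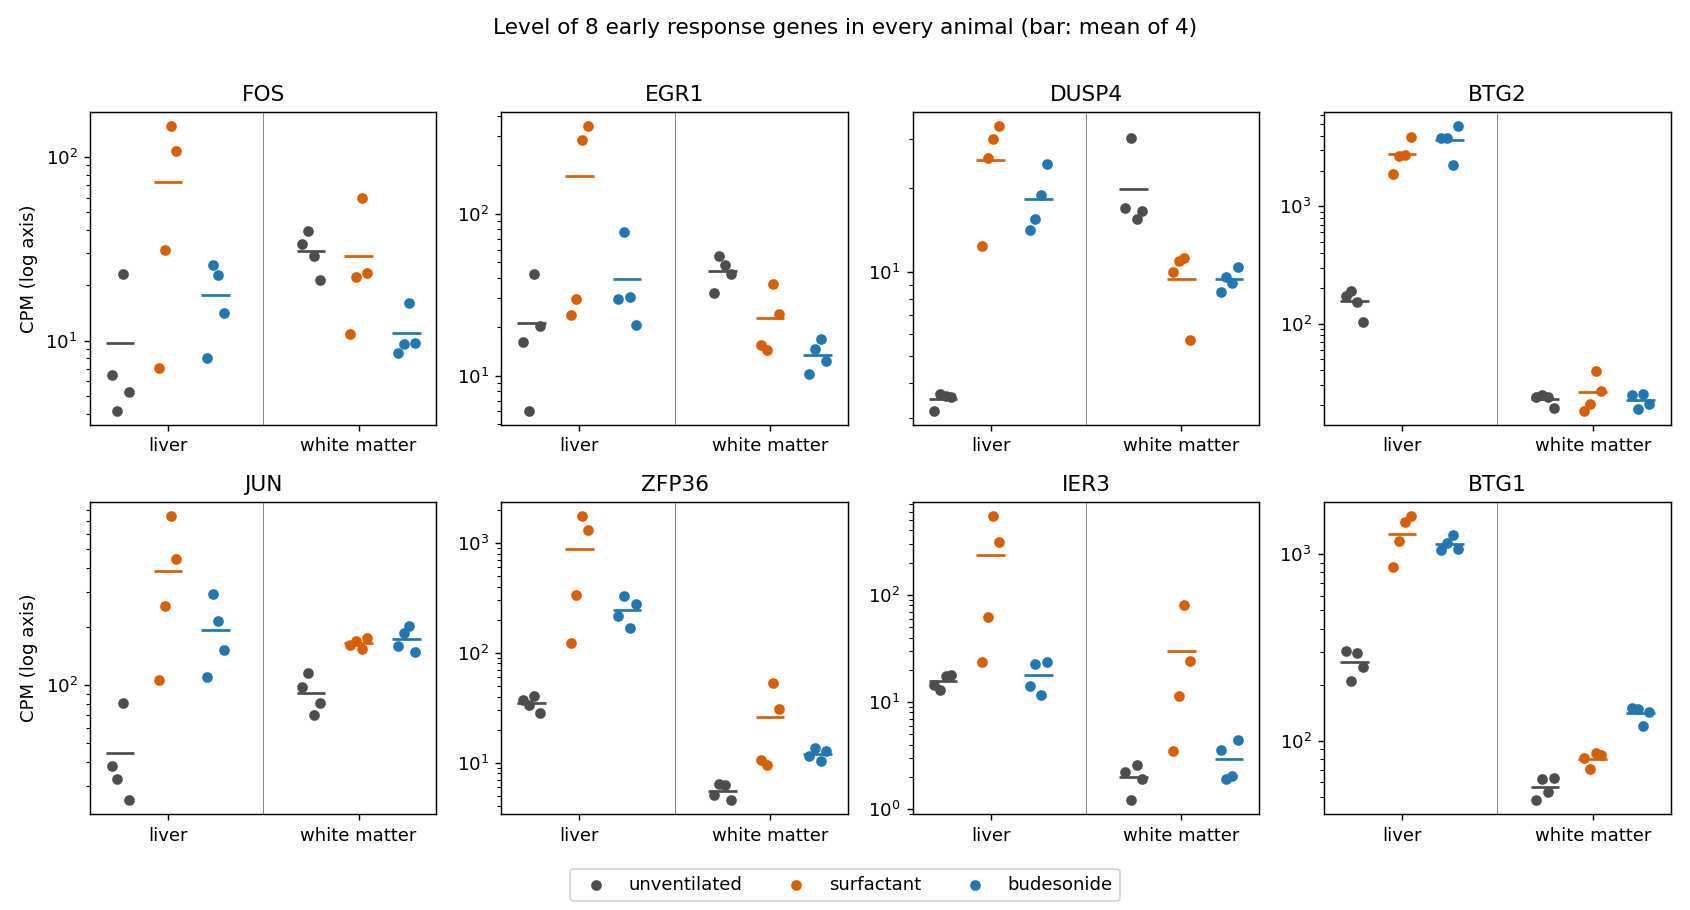
CPM of 8 genes in every animal, on log axes, for liver (left of each panel) and white matter (right), with points for animals and bars for the mean of 4. FOS, EGR1 and IER3 scatter widely over the surfactant livers, DUSP4 moves up in liver and down in white matter, and BTG1 forms 3 separate steps in white matter.

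Feedback genes restrain the same signals: DUSP2, DUSP4, DUSP5 and DUSP6 remove phosphate from MAP kinases, RGS2 shortens G protein signals and SIK1 opposes CREB coactivators. In liver DUSP4, DUSP5, RGS2 and SIK1 rose with surfactant, and in PVWM SIK1 rose and DUSP4 fell. DUSP4 in liver measured 3.18, 3.65, 3.59 and 3.57 CPM unventilated, 12.4, 25.6, 29.9 and 33.2 CPM with surfactant and 14.1, 15.4, 18.9 and 24.3 CPM with budesonide. DUSP4 in PVWM was 17, 30.1, 15.4 and 16.5 CPM unventilated, 9.95, 11, 11.2 and 5.68 CPM with surfactant and 8.48, 9.56, 9.12 and 10.4 CPM with budesonide. Ventilated animals lay above all unventilated ones in liver and below all of them in PVWM. The surfactant change was 2.85 ± 0.29 in liver (adjusted p = 2.74e-05) and -1.06 ± 0.24 in PVWM (adjusted p = 0.0375), with a tissue difference of 3.99 ± 0.39 (adjusted p = 3.67e-07). The liver call held under every alternative, and the PVWM call was lost under 15 of 19, with adjusted p up to 0.359 with gestational age as a covariate.

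DUSP5, a nuclear phosphatase for ERK, had liver values of 2.55, 3.74, 6.82 and 5.89 CPM unventilated, 10.6, 36, 399.5 and 177 CPM with surfactant and 5.24, 21, 3.61 and 18 CPM with budesonide. Animals 049 and 051 were far above the rest, and the surfactant change was 5.04 ± 1.01 (adjusted p = 0.00213). DUSP5 in PVWM was 6.14, 8.15, 3.26 and 5.64 CPM unventilated, 5.04, 2.69, 4.85 and 6.37 CPM with surfactant and 1.45, 2.95, 2.08 and 0.692 CPM with budesonide. All budesonide animals lay below all unventilated ones there (-1.68 ± 0.40, adjusted p = 0.0203), and overlapped the surfactant animals, against which no call was made (-1.39 ± 0.40, adjusted p = 0.143). DUSP6, the cytoplasmic ERK phosphatase, was not called in liver and changed in PVWM by -0.71 ± 0.17 with budesonide (adjusted p = 0.0211). SIK1 rose in PVWM by 1.25 ± 0.27 with surfactant (adjusted p = 0.0318) and 1.10 ± 0.27 with budesonide (adjusted p = 0.024).

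The last group acts on RNA decay, growth arrest and stress: ZFP36 destabilises AU-rich messages, BTG1 and BTG2 recruit deadenylases and slow division, PPP1R15A restores translation after stress, and IER3 modulates survival signals. All 5 rose in liver with surfactant, and ZFP36, BTG1 and IER3 also rose in PVWM. ZFP36 in liver measured 37.6, 33.5, 40.5 and 28.4 CPM unventilated, 123, 336, 1765 and 1304 CPM with surfactant and 214, 328, 167 and 279 CPM with budesonide. ZFP36 in PVWM was 5.09, 6.36, 6.2 and 4.58 CPM unventilated, 10.7, 9.49, 53.3 and 30.5 CPM with surfactant and 11.6, 13.5, 10.4 and 12.7 CPM with budesonide. Surfactant animals were above all unventilated ones in both tissues, with 049 and 051 highest (4.66 ± 0.68 in liver, adjusted p = 0.000317, and 2.22 ± 0.45 in PVWM, adjusted p = 0.0236). BTG2 in liver measured 173, 190.0, 153 and 104 CPM unventilated, 1884, 2712, 2722 and 3923 CPM with surfactant and 3857, 3823, 2255 and 4807 CPM with budesonide. The ventilated livers were all more than an order of magnitude above the unventilated mean, and the surfactant change of 4.18 ± 0.31 had the smallest adjusted p of the members (5.62e-06). BTG2 in PVWM, at 23.5, 24.8, 23.4 and 19.1 CPM unventilated, 18.1, 20.4, 39.3 and 26.8 CPM with surfactant and 24.7, 18.7, 25.1 and 20.6 CPM with budesonide, overlapped between groups. PPP1R15A changed by 2.08 ± 0.43 in liver (adjusted p = 0.00273) and 0.37 ± 0.12 in PVWM (adjusted p = 0.17).

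IER3 in liver measured 14.3, 12.9, 17.6 and 17.9 CPM unventilated, 23.8, 61.8, 547 and 313 CPM with surfactant and 14.1, 22.7, 11.7 and 23.4 CPM with budesonide. IER3 in PVWM was 2.21, 1.22, 2.57 and 1.92 CPM unventilated, 3.52, 11.5, 79.9 and 24.4 CPM with surfactant and 3.54, 1.91, 2.02 and 4.4 CPM with budesonide. The surfactant animals ranked alike in both tissues, 049 highest, then 051, 032 and 007, and spanned 23.0-fold in liver and 22.7-fold in PVWM. The surfactant change was 3.92 ± 0.76 in liver (adjusted p = 0.00176) and 3.90 ± 0.77 in PVWM (adjusted p = 0.0201), and the tissue difference was not called (0.11 ± 1.13, adjusted p = 0.981). The budesonide values overlapped the unventilated range in both tissues.

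Adding budesonide to surfactant lowered 4 of 36 members in liver and raised 0, where 7.85% of all genes were called lower and 4.01% higher (11.9% in either direction). The 4 were IER3 (-3.72 ± 0.75, adjusted p = 0.00987), DUSP5 (-3.70 ± 0.94, adjusted p = 0.0257), NR4A3 (-3.36 ± 0.88, adjusted p = 0.0282) and IER2 (-1.69 ± 0.49, adjusted p = 0.0429). IER2 in liver measured 17.7, 16.9, 24.2 and 20.1 CPM unventilated, 38.2, 41.4, 243 and 139 CPM with surfactant and 27.7, 46.8, 29.9 and 38.8 CPM with budesonide. The budesonide and surfactant livers overlapped through surfactant animal 007 for DUSP5, where it lay within the budesonide range, and for NR4A3, where it lay below it. For IER2 animals 007 and 032 lay within the budesonide range. The groups did not overlap for IER3, whose highest budesonide value was 23.4 CPM and lowest surfactant value 23.8 CPM. The fitted change was negative for 32 of 36 members, with a median of -1.10 log2 against -0.01 over all genes, and 22 of 36 had an unadjusted p under 0.05, as did 29.8% of all genes. At the threshold used, 11.1% of the members were called, close to the 11.9% of all genes.

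This liver comparison depended on single surfactant lambs. Without animal 007 edgeR called 23 members lower and 10.5% of all genes lower. It called 8 members and 5.78% of all genes lower without 032, 1 and 4.61% without 049, and 0 and 6.75% without both 049 and 051. The median change of the members, -1.10 log2 with all animals, was -0.64 without 049 and 0.11 without both 049 and 051. Leaving out budesonide animals gave 1 member without 031, with 3.99% of all genes lower, and 2 without 048, 050 or 054, with 4.1%, 5.33% and 6.75%. IER3 kept its call without any single animal, and its adjusted p was 0.0507 without both 049 and 051. The surfactant livers varied least for BTG1 (1.87-fold), KLF6 (1.99-fold) and BTG2 (2.08-fold), and the change with budesonide was -0.18 ± 0.20, 0.08 ± 0.21 and 0.39 ± 0.27 for these 3, none of them called.

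In PVWM, budesonide against surfactant gave 1 member higher, BTG1, and 1 lower, IER2, of 39, where 0.591% of all genes were called higher and 0.387% lower (0.978% in either direction). BTG1 in PVWM measured 48.1, 61.9, 53.3 and 62.8 CPM unventilated, 80.6, 70.4, 86 and 83.5 CPM with surfactant and 149, 149, 120.5 and 143 CPM with budesonide. The 3 groups did not overlap, and BTG1 was higher with budesonide than with surfactant by 0.81 ± 0.10 (adjusted p = 0.00386), a call kept under every alternative. BTG1 in liver measured 301, 209, 294 and 249.8 CPM unventilated, 860.1, 1182, 1486 and 1609.7 CPM with surfactant and 1049, 1153, 1271 and 1072 CPM with budesonide. Both ventilated groups were above the unventilated livers and overlapped each other. The tissue difference was called for BTG1 alone (-0.98 ± 0.23, adjusted p = 0.0192), where 2% of genes were called lower and 1.41% higher (3.41% in either direction), and with a replicate block for the animal, that is in the paired fit, its adjusted p was 0.0783. Without animal 031, 032, 048, 049 or 054 the adjusted p was 0.0788, 0.0502, 0.0673, 0.0534 or 0.0522.

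IER2, a small nuclear protein of the first response, measured 35, 35.9, 26.9 and 28.2 CPM unventilated, 26.3, 25.1, 36.2 and 37.1 CPM with surfactant and 16.5, 15.9, 20.1 and 18.4 CPM with budesonide in PVWM. All budesonide values lay below all surfactant and unventilated values, and the surfactant and unventilated groups overlapped (-0.82 ± 0.15 against surfactant, adjusted p = 0.0265). This call was lost without any of the animals 031, 048, 050, 054, 049 or 051, with adjusted p of 0.0529 to 0.0888. IER3 had the largest fitted fall in PVWM and was not called (-3.33 ± 0.73, adjusted p = 0.0536). The fitted changes were negative for 29 of 39 members in PVWM, and 25 of the 36 tested in both tissues were negative in both. The share of all genes negative in both was not computed. The PVWM median was -0.23 log2 with all animals and -0.05 without both 049 and 051.

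**Figure D4:**
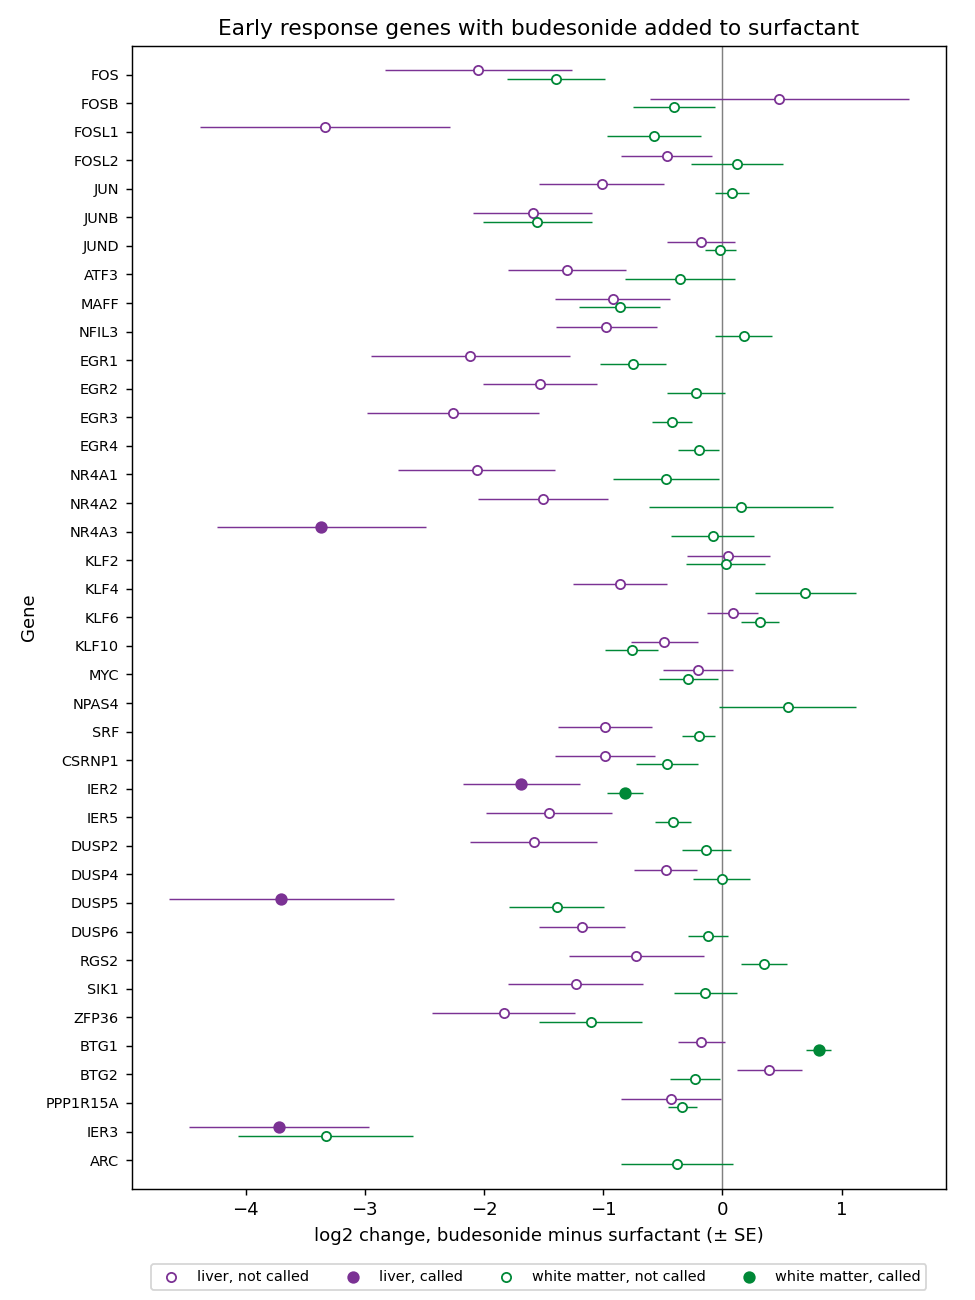
Log2 change from surfactant to budesonide for each gene (rows) with SE bars, in liver (purple) and white matter (green); filled points were called. The filled liver points are IER3, DUSP5, NR4A3 and IER2, and the filled white matter points are IER2, left of 0, and BTG1 at 0.81.

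Budesonide lambs can also be set beside the unventilated ones, a comparison that shares its controls with the surfactant comparison. In liver 19 of 36 members were higher and 0 lower, where 23.3% of all genes were called higher and 23.7% lower (47% in either direction), with a median change of 1.82 log2. The 19 included 8 of the 10 AP-1 group genes and ZFP36, BTG1, BTG2 and PPP1R15A, while EGR1 (0.90 ± 0.82), EGR2 (-0.01 ± 0.48), EGR3 (0.05 ± 0.77), FOS (0.87 ± 0.78) and IER3 (0.20 ± 0.69) were not called. In PVWM 4 members rose (JUN, RGS2, SIK1 and BTG1) and 12 fell, where 4.35% of all genes were called higher and 3.71% lower (8.06% in either direction). The 12 were FOS, FOSB, EGR1, EGR3, EGR4, NR4A3, NPAS4, IER2, DUSP4, DUSP5, DUSP6 and ARC, of which FOSB and NPAS4 passed the filter only through the unventilated group. Of the other 37 members 4 rose and 10 fell. BTG1 had the smallest adjusted p in PVWM (1.31 ± 0.11, adjusted p = 1.08e-05). Without budesonide animal 031 the PVWM count was 3 higher and 7 lower, with 3.13% and 2.61% of all genes, and with gestational age as a covariate it was 1 higher and 6 lower, with 1.04% and 0.822%.

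The liver change with budesonide exceeded the PVWM change for 20 members and was below it for 0, where 16.2% of genes were called higher and 13.6% lower (29.7% in either direction). The largest called among those with a test in both tissues was FOSL1 (5.19 ± 1.59, adjusted p = 0.0165), followed by BTG2 (4.67 ± 0.38, adjusted p = 2.33e-08) and JUNB (4.60 ± 0.74, adjusted p = 8.61e-05). The FOSL1 value rests on 4 counts over all unventilated livers, of which 0 reached the filter level, so its size and rank are uncertain. The 20 also included ARC, which had too few liver counts to be tested there. FOSB, another of the 20, passed the PVWM filter only through the unventilated group, where it was high. DUSP4 and NR4A3 were called higher in liver and lower in PVWM, and 3 members, JUN, SIK1 and BTG1, were called higher in both. The share of all genes with such joint calls was not computed. Without animal 048 the count was 11, with 12.8% of all genes higher, and without 058 it was 12, with 13.2%.

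Genes around these pathways were read from lists compiled beside the members. The shares over all genes given above for each tissue and comparison are the ones to set beside the list counts. Of 45 other early response genes tested in liver, 36 rose and 4 fell with surfactant, with a median of 2.63 log2, among them GADD45G (4.57 ± 0.34, adjusted p = 5.62e-06), SOCS3, which restrains cytokine signals (5.21 ± 0.48, adjusted p = 1.47e-05), and ARID5B (3.26 ± 0.26, adjusted p = 6.68e-06). In PVWM 9 of 45 rose and 2 fell, with GADD45A up (1.48 ± 0.19, adjusted p = 0.00174) and PLAU, a plasminogen activator, down (-1.18 ± 0.15, adjusted p = 0.00172). Of 14 genes of ERK feedback, 9 rose and 1 fell in liver, led by DUSP14 (3.29 ± 0.40, adjusted p = 9.5e-05), and 1 rose and 2 fell in PVWM. The kinases and factors upstream of the members showed 9 higher and 6 lower of 38 in liver, with a median of 0.05 log2, shares close to the 21.6% and 19.5% over all liver genes, and 0 of 39 called in PVWM. With budesonide against surfactant, 2 of the 45 other early response genes rose and 11 fell in liver, among the latter LIF, a cytokine (-4.87 ± 0.95, adjusted p = 0.00863).

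Late response genes of active neurons were tested for 13 genes in liver and 20 in PVWM. In liver 10 of 13 rose and 1 fell with surfactant, with a median of 3.58 log2, INHBA, an activin subunit, among them (3.75 ± 0.40, adjusted p = 4.12e-05). In PVWM 1 of 20 fell with surfactant, NPTX2, a secreted pentraxin of excitatory synapses (-1.58 ± 0.25, adjusted p = 0.00589), and 0 rose. With budesonide 4 fell against unventilated lambs, including NPTX2 (-1.0 ± 0.24, adjusted p = 0.023), GPR3 (-1.65 ± 0.41, adjusted p = 0.0258) and BDNF, a neurotrophin (-1.32 ± 0.35, adjusted p = 0.035), and 0 rose. Against surfactant, budesonide changed 0 of these 20 and 5 of the 45 other early response genes in PVWM, with GADD45G up (2.03 ± 0.22, adjusted p = 0.00142), ID1 down (-1.44 ± 0.22, adjusted p = 0.00819) and KLF15, a glucocorticoid-responsive factor, up (0.74 ± 0.13, adjusted p = 0.0215).

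Markers of other cells also moved with the groups. Of all liver genes 21.6% were called higher with surfactant against unventilated, the share to set beside the liver counts here. In liver 8 of 9 tested neutrophil markers rose with surfactant. The summed level of the list was 100.3 to 169.5 CPM in unventilated, 223 to 422 in surfactant and 104 to 163 in budesonide livers. No marker of the list was at 0 over all liver libraries together. Endothelial markers, with 4 of 10 called higher, summed to 315 to 404, 439 to 560.1 and 283 to 332 CPM in the same order, and stellate cell markers, with 2 of 6 called higher, to 374 to 555, 632 to 808 and 526 to 711 CPM. In PVWM the microglia and macrophage markers summed to 219 to 234 CPM in unventilated, 179.6 to 245 in surfactant and 97.5 to 123 in budesonide animals, 4 of 8 being lower and 1 higher with budesonide than without ventilation. Of all PVWM genes 3.71% were lower and 4.35% higher in that comparison, and 1.35% were higher with surfactant against unventilated. Astrocyte markers, with 1 of 6 called higher with surfactant, summed to 3766 to 4735, 5237 to 6104 and 4818 to 6009 CPM, and the oligodendrocyte sum of surfactant animal 051 stood apart at 16373 CPM. The part of these cells in the changes of the early genes was not tested.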

How the data were processed

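The 2 deposited tables hold whole-number counts per gene, which the authors made from poly-A libraries with Bowtie2 and featureCounts, per the submitters' processing notes, which also name edgeR. Their versions, the settings and the build of the genome are not given in the sources used here. How reads shared between paralogs were counted is not given either, so members of close families (FOS, EGR, NR4A, KLF, DUSP) could exchange reads. Total RNA was extracted with Trizol, per the labels. Groups, animal numbers, ages and doses came from the labels. Sex was not given for liver 060 and PVWM 061, so the labels of animal 060 differ between its tissues (female in PVWM). The 39 members and the gene lists were chosen with earlier results of these data known.

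R 4.3.3 with edgeR 4.0.16 and limma 3.58.1 was used. Within each tissue genes were kept by filterByExpr, scaled by TMM factors and fitted without covariates in 1 robust quasi-likelihood model of the 3 groups. Benjamini-Hochberg adjustment ran over all genes tested, 16824 in liver and 18616 in PVWM, and calls needed an adjusted p under 0.05. Log2 CPM of single libraries, drawn in the heat map, carry a prior count of 2. The tissue difference was the liver change minus the PVWM change in a fit of 6 groups over 20010 genes. Animals in a group were separate lambs, 4 per group, which limits the precision more than the depth of at least 14.9 M counts per library. The scripts were tested on simulated data.

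Values of every animal are given for members with the smallest adjusted p in a tissue difference, in budesonide against surfactant or in surfactant against unventilated, and for those called in opposite directions, 18 in all. FOS, EGR1 and ARC were added after their values were seen. Libraries with the same animal number in the titles were taken as the same animal, which pairs the tissues: the 11 pairs had residual correlations of 0.078 to 0.199 (median 0.125, 6 of them over 0.1), and pairs of different animals had a median of -0.01. Alternatives were median-ratio scaling, no low-count filter, DESeq2 1.42.0, only the 2 groups compared, age or sex as covariate, a replicate block for the animal, and each animal left out in turn. Leaving out both surfactant animals 049 and 051 was chosen after seeing the data.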

Additional observations from a re-analysis of the deposited data

Results flagged for a closer look

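Among the groups of 4 animals checked for the 18 members with values in every animal, 11 of 108 held 1 animal far from the other 3. The chance rate of about 1 in 20 is for normally spread values, which groups with 3 animals at 0 are not. No excess of such animals is read from this count. In unventilated livers animal 059 was high for FOSB (0.764 CPM) and NFIL3 (26.8 CPM), animal 058 for EGR4 (0.0456 CPM) and animal 057 for NPAS4 (0.0963 CPM), while 057 was low for DUSP4 (3.18 CPM). The EGR4 values in liver, also high in budesonide animal 031 (0.0582 CPM), and NPAS4, also high in surfactant animal 051 (0.103 CPM), rest on 1 or 2 counts. The other 3 animals of each of these liver groups were at 0, so that any count was flagged. NPAS4 was at 0 in all budesonide livers, a group that could not be flagged. In PVWM, unventilated animal 058 was high for EGR4 (18.6 CPM) and DUSP4 (30.1 CPM), and budesonide animal 031 was high for KLF6 (95.2 CPM) and low for MAFF (1.16 CPM).

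The liver change differed from the PVWM change by the edgeR test of that difference. For surfactant against unventilated the difference, liver minus PVWM, was 4.05 for BTG2, 3.99 for DUSP4, 2.52 for KLF6, 1.86 for BTG1, 3.85 for NFIL3, 4.09 for FOSL2, 7.21 for NR4A3 and 2.66 for MYC on the log2 scale. For budesonide against unventilated it was 4.67 for BTG2, 3.52 for DUSP4, 2.29 for KLF6, 2.74 for MYC, 4.60 for JUNB, 3.49 for FOSL2, 4.37 for MAFF and 2.69 for NFIL3. For budesonide against surfactant it was -0.98 for BTG1.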

How the results depend on the processing

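The counts below are of members, and the share of all genes called can also change with the setting. Such shares are given above for only some settings, so these counts are not read as particular to the members. Liver, surfactant against unventilated, stood at 32 members called, with 11 under the age covariate, 22 under sex, 21 without both 049 and 051, and 29 to 33 over single animals left out. Liver, budesonide against unventilated, stood at 19, with 10 under the age covariate, 15 under sex and 17 to 21 over single animals. Liver, budesonide against surfactant, stood at 4, with 1 without the low-count filter, 15 by DESeq2, 1 with only the 2 groups compared, 2 with age, 1 with sex, 0 without both 049 and 051, and 1 to 23 over single animals. PVWM, surfactant against unventilated, stood at 11, with 5 from only the 2 groups compared, 0 with age, 2 with sex, 4 without both 049 and 051, and 3 to 10 over single animals. The sex fit lacked PVWM 061, and leaving out 061 alone gave 4. PVWM, budesonide against unventilated, stood at 16, with 7 under age, 8 under sex, and 10 to 18 over single animals. PVWM, budesonide against surfactant, stood at 2, with 6 by DESeq2, 1 with only the 2 groups compared, 1 with sex, 1 without both 049 and 051, and 1 to 4 over single animals. For the tissue difference, surfactant against unventilated went from 31 to 19 without both 049 and 051 and to 27 to 34 over single animals, and budesonide against unventilated from 20 to 11 to 27. Budesonide against surfactant went from 1 to 2 by DESeq2, 0 with the replicate block, 0 without both 049 and 051, and 0 to 6 over single animals. In the paired fit with the replicate block for the animal, the other tissue differences had 30 calls in place of 31 and 22 in place of 20. Sign changes were counted only for changes called in the main fit or in the alternative. Without both 049 and 051, 3 of these turned negative: liver EGR3 to -0.20, PVWM JUNB to -1.07 and the EGR4 tissue difference to -0.41, all for surfactant against unventilated. Age nearly coincides with ventilation, so the age fit has little left to compare. Otherwise the cause was not tested. Calls kept under every alternative numbered 11 of 32 in liver and 0 of 11 in PVWM for surfactant against unventilated, and 10 of 19 and 5 of 16 for budesonide against unventilated. For members with few counts (EGR4, NPAS4 and ARC in liver) depth limits any comparison.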
